A study of Zea mays with 18 samples.

Results

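The maize gene r1 (colored1, feature Zm00001d026147) was followed through 18 RNA-seq libraries of laser-captured endosperm. It is 1 of 46430 features in the count tables, and it was chosen by its counts as well as by its name: its alleles define the genotypes of the series, and its read counts were already known to differ between them. Its levels are therefore given as a description, without a test. Neither the count tables nor the RefSeq table of the newer B73 assembly pairs this feature ID with a symbol, so calling it r1 rests on the identification this description started from and could not be checked in the data. That RefSeq table lists a single gene under the names r1, colored1, LC, SN and hopi.

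r1 encodes a basic helix-loop-helix transcription factor. Together with a MYB partner, which is C1 in the aleurone, it switches on the enzyme genes that make anthocyanin, the red and purple pigment of the kernel. Within the endosperm, anthocyanin accumulates in the aleurone, the outermost cell layer. It does not normally accumulate in the starchy endosperm, the starch and protein store that the aleurone encloses. Natural r1 alleles are known to differ in which tissues they colour, and some carry several r1 copies in a row.

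The libraries form 6 groups of 3, namely the aleurone and the starchy endosperm of genotypes r1-m3, R1-sc and R1-g, all in the inbred W22 background and all cut out 19 days after pollination from kernels of self-pollinated field plants. The series design names R1-g as the wild type, and in maize nomenclature an m in an allele symbol marks a mutable allele. The labels do not say whether R1-g is a coloured or a colourless allele. R1-g had the lowest mean r1 level in both compartments. The labels also do not describe the lesion in r1-m3 or the number of r1 copies in any allele. How many kernels or plants stand behind a library is not given either. Reads of all 3 genotypes were aligned to a genome build of the inbred B73, and how closely each allele matches it is not given. In every comparison between genotypes, a lower level and poorer alignment of an allele therefore cannot be told apart. P-values are not given for r1, and its SDs measure only the spread between these libraries.

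Table totals were 42.1 to 69.2 M (M, mega-counts), of which 12.5 to 20.4 M fell on features. All 18 libraries were most similar to a library of their own compartment, with correlations of at most 0.454 between compartments, and 10 of the 18 were most similar to a library of their own genotype and compartment. Of 31 planned marker genes for aleurone, starchy endosperm, embryo and pericarp, 0 could be paired with a feature ID, so the compartment labels were not checked against markers. The 27 planned genes of the anthocyanin pathway could not be paired either, and their levels are not analysed here. The 3 libraries of r1-m3 aleurone stood apart in how much they held in common. Between replicates 1 and 2, 490 features had at least 200 counts in 1 library and 0 in the other, and replicate 3 had reads on all 490. Between replicate 3 and replicates 1 and 2 there were 164 and 134 such features, each with reads in the remaining library, so this share was 100% for all 3 libraries. In R1-sc and R1-g aleurone it was 54.3% to 69.4%. Log2 CPM of r1-m3 aleurone replicate 3 correlated at 0.871 and 0.892 with replicates 1 and 2, which correlated at 0.653 with each other, against 0.571 to 0.613 within R1-sc and R1-g aleurone. How replicate 3 came to resemble both was not tested, and the r1 comparisons with r1-m3 aleurone are given with and without it.

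In the starchy endosperm, r1 reads were abundant in r1-m3 and R1-sc and were not found in R1-g. The r1-m3 libraries held 3519, 3571 and 5848 reads on r1 in replicates 1, 2 and 3. The R1-sc libraries held 2452, 2427 and 2756 reads. Each of the 3 R1-g libraries held 0 reads. The 2 genotypes with reads lay close together, and all of their 6 libraries stood apart from R1-g.

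As counts per M (CPM), scaled between libraries with TMM factors, these reads came to 312, 301 and 435 CPM in r1-m3 starchy endosperm. In R1-sc starchy endosperm they came to 242, 281 and 268 CPM. In R1-g starchy endosperm a count of 0 allows up to 3 counts, or 0.265, 0.249 and 0.292 CPM in the 3 libraries. These limits and all counting intervals below cover counting error only, since the cDNA was amplified and several reads may stem from 1 molecule. Feature totals were 14.3 to 16.9 M in R1-g starchy endosperm, against 16.1 to 17.5 M in r1-m3 and 12.5 to 15.3 M in R1-sc. Reads that aligned to several places, which are given to no feature, took 50.2% to 51.4% of the r1-m3 table totals, 48.7% to 55.0% of those of R1-sc and 49.6% to 52.0% of those of R1-g. The part of these measures in the absence of reads was not tested. In captured tissue, fewer cells that carry a transcript and less of it in each cell cannot be told apart.

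**Figure D1:**
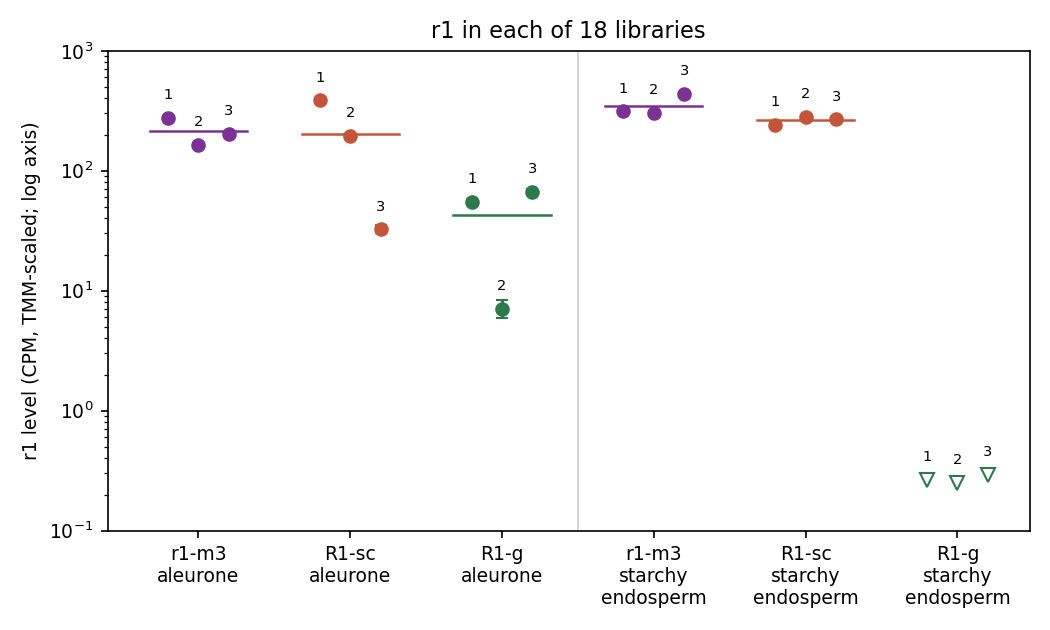
r1 level in CPM on a log axis for each of the 18 libraries, by genotype and compartment. Filled circles are libraries numbered by replicate with exact 95% Poisson counting intervals, mostly smaller than the symbol, lines are means of 3 libraries, and open triangles are the limit that 3 counts allow in libraries with 0 reads. The 6 libraries of r1-m3 and R1-sc starchy endosperm sit between 242 and 435 CPM, and the 3 of R1-g starchy endosperm have no reads.

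Against the 3 counts allowed over the R1-g group, r1 stood at least 3918-fold higher in r1-m3 starchy endosperm, at a mean of 349.5 ± 74.0 CPM against 0 reads (SD, n = 3 each). In R1-sc starchy endosperm it stood at least 2953-fold higher, at 263 ± 20.001 CPM against 0 reads (SD, n = 3 each). Both comparisons share the R1-g libraries. Of all 18028 features tested, 3.83% had all r1-m3 libraries above all R1-g libraries in this compartment, and 3% had all R1-sc libraries above all R1-g libraries. The ratio of r1 was the largest of the 18028 features in both comparisons, when every group under 3 counts is set to 3 counts. On the log2 scale it was 11.94 for r1-m3 over R1-g, where the next feature had 9.20, and 11.53 for R1-sc over R1-g, where the next feature had 9.71. With R1-g replicate 2 left out, 3 counts are allowed over fewer reads and the bounds were 11.29 and 10.88. The ratio of r1 was also the largest in both comparisons with library totals and with DESeq2 size factors in place of TMM. That rank could hardly change, because another scaling shifts all features of a comparison by nearly the same amount. It also rests on the values that chose the gene.

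The contrast between presence and absence was seen for few features. Of 2837 features at 10 CPM or more in all 6 libraries of r1-m3 and R1-sc starchy endosperm, 1 had 0 reads in all 3 R1-g libraries, and that feature was r1. With a minimum of 1 CPM there were 5903 such features, and r1 was again the single feature at 0. The sets are nested, so no other feature could appear with 10 CPM, or with 50 CPM, where there were 984. The 0 reads of r1 in R1-g were among the values that chose the gene.

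r1-m3 and R1-sc differed little from each other in the starchy endosperm. All 3 r1-m3 libraries, at 301 CPM or more, lay above all 3 R1-sc libraries, at 281 CPM or less, as they did for 5.3% of all features tested. The gap was narrow, and with DESeq2 size factors the libraries overlapped, at 292 to 390 CPM in r1-m3 against 245 to 313 CPM in R1-sc. The log2 fold change of r1-m3 over R1-sc was 0.41 with a standard error of 0.69 from edgeR's fit over all features. The difference was smaller than this error, which uses a spread of r1 shared by all groups. Within these 2 groups the spread was smaller, with SDs of log2 CPM of 0.29 in r1-m3 and 0.11 in R1-sc. Of the 18028 features, 6461 had a larger ratio than r1 in this comparison.

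**Figure D2:**
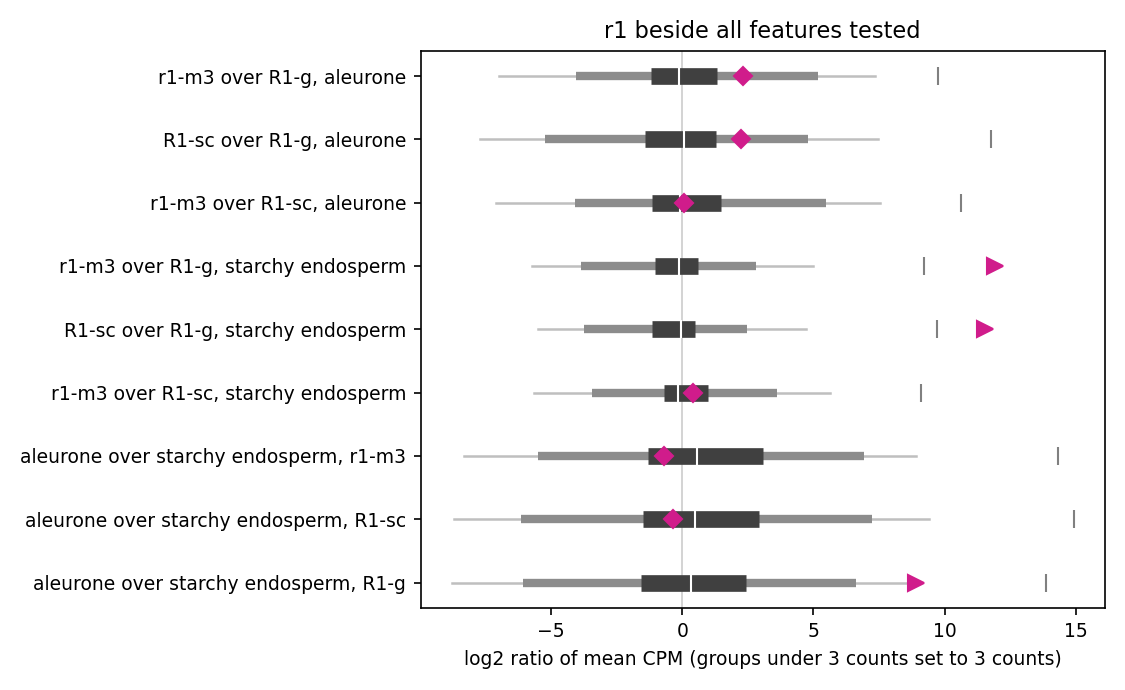
Log2 ratio of mean CPM in 9 comparisons, for r1 (pink) and for all 18028 features tested (dark box, middle 50%; grey bar, 5th to 95th percentile; thin line, 1st to 99th percentile; white tick, median; grey tick, largest ratio of any other feature). Pink arrows are lower bounds against a group with 0 reads, and diamonds are ratios between groups with reads. r1 lies beyond every other feature at 11.94 and 11.53 in the comparisons of r1-m3 and R1-sc with R1-g starchy endosperm, and within the bulk of features for r1-m3 over R1-sc in both compartments.

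In the aleurone, reads of r1 were found in every library of all 3 genotypes, and the libraries of a genotype varied widely. The r1-m3 libraries held 6743, 3547 and 6633 reads in replicates 1, 2 and 3, which came to 277, 165 and 202 CPM. The R1-sc libraries held 8410, 3496 and 671 reads, which came to 385, 195 and 32.5 CPM. The R1-g libraries held 1212, 136 and 1431 reads, which came to 55.3, 7.04 and 66.9 CPM. R1-sc replicate 3 thus lay among the R1-g libraries, while the other 5 libraries of r1-m3 and R1-sc lay above all of R1-g.

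r1-m3 aleurone averaged 215 ± 57.0 CPM and R1-g aleurone 43.1 ± 31.8 CPM (SD, n = 3 each), a log2 fold change of 2.32 with a standard error of 0.72, or 4.98-fold. The standard error uses a spread of r1 shared by all groups, while the SDs of log2 CPM were 0.38 in r1-m3 and 1.79 in R1-g. The libraries did not overlap, as was the case in this direction for 13.1% of all features tested. Without replicate 3 the r1-m3 mean was 221 ± 79.1 CPM (SD, n = 2) and the log2 fold change 2.36, and 12.7% of the 19111 features then tested did not overlap in this direction. Replicate 3, at 202 CPM, lay between replicates 1 and 2. A larger ratio than that of r1 was found for 2963 of the 18028 features.

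R1-sc aleurone averaged 204 ± 176 CPM against 43.1 ± 31.8 CPM in R1-g aleurone (SD, n = 3 each). The log2 fold change was 2.24 with a standard error of 0.72, or 4.74-fold, and the libraries overlapped through R1-sc replicate 3. The shared standard error understates the spread of these 2 groups, where the SDs of log2 CPM were 1.84 in R1-sc and 1.79 in R1-g. Without R1-sc replicate 1 the log2 fold change was the lowest of those with a library left out, at 1.40, and without R1-sc replicate 3 it was the highest, at 2.74. Between r1-m3 and R1-sc the aleurone means were 215 and 204 CPM, with a log2 fold change of 0.07 and a standard error of 0.69. Without r1-m3 replicate 3 the value was 0.12. It changed sign to -0.02 with DESeq2 size factors, to -0.14 without r1-m3 replicate 1 and to -0.43 without R1-sc replicate 3, and was 0.92 without R1-sc replicate 1, so no direction is given.

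The genotype comparisons differed in size between the compartments as far as the counts show. r1-m3 over R1-g stood at a log2 fold change of 2.32 in the aleurone and at 11.94 or more in the starchy endosperm, and R1-sc over R1-g at 2.24 and at 11.53 or more. The difference between the compartments was not tested, because these values chose the gene.

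Within genotypes, r1 reads were distributed over the compartments in different ways. R1-g had them in the aleurone, at 55.3, 7.04 and 66.9 CPM, against 0 reads in the starchy endosperm. That is at least 483-fold higher in the aleurone with 3 counts allowed over the starchy endosperm group. The libraries did not overlap, as for 14.9% of all features tested, and 186 features of 18028 had a larger ratio. On the log2 scale the bound was 8.92, and it was 8.28 without R1-g starchy endosperm replicate 2, the lowest with a library left out. In R1-g the aleurone library with the fewest reads, replicate 2, still held 136 (exact 95% Poisson interval 114 to 161).

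In r1-m3 the aleurone stood at 165 to 277 CPM, below the starchy endosperm at 301 to 435 CPM, with a log2 fold change of -0.70 (standard error 0.69). All 3 aleurone libraries lay below all 3 starchy endosperm libraries, as for 16.4% of all features tested. Without aleurone replicate 3 the log2 fold change was -0.65, the libraries still did not overlap, and the share was 15.7%. This order depends on the scaling between the compartments. With library totals in place of TMM factors the levels were 234 to 454 CPM in the aleurone against 219 to 334 CPM in the starchy endosperm, and the log2 fold change turned to 0.39. TMM factors were 1.17 to 1.64 in the aleurone libraries and 0.663 to 0.813 in the starchy endosperm libraries. The median feature moved as well, to 1.70 with library totals, against 0.62 with TMM. Relative to that median r1 stood at -1.32 with TMM, -1.31 with library totals and -1.33 with DESeq2 size factors. These values are alike by construction, because another scaling shifts all features of a comparison by nearly the same amount.

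In R1-sc the compartments overlapped, at 32.5 to 385 CPM in the aleurone against 242 to 281 CPM in the starchy endosperm. The log2 fold change was -0.37 (standard error 0.69), turned to 0.53 with library totals and to 0.14 without R1-sc aleurone replicate 3, and was -1.21 without R1-sc aleurone replicate 1. Relative to the median of all features, r1 stood at -0.96 with TMM, -0.90 with library totals and -0.999 with DESeq2 size factors, again alike by construction. Of all features, 10741 of 18028 had a larger aleurone to starchy endosperm ratio in R1-sc, and 12001 in r1-m3.

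**Figure D3:**
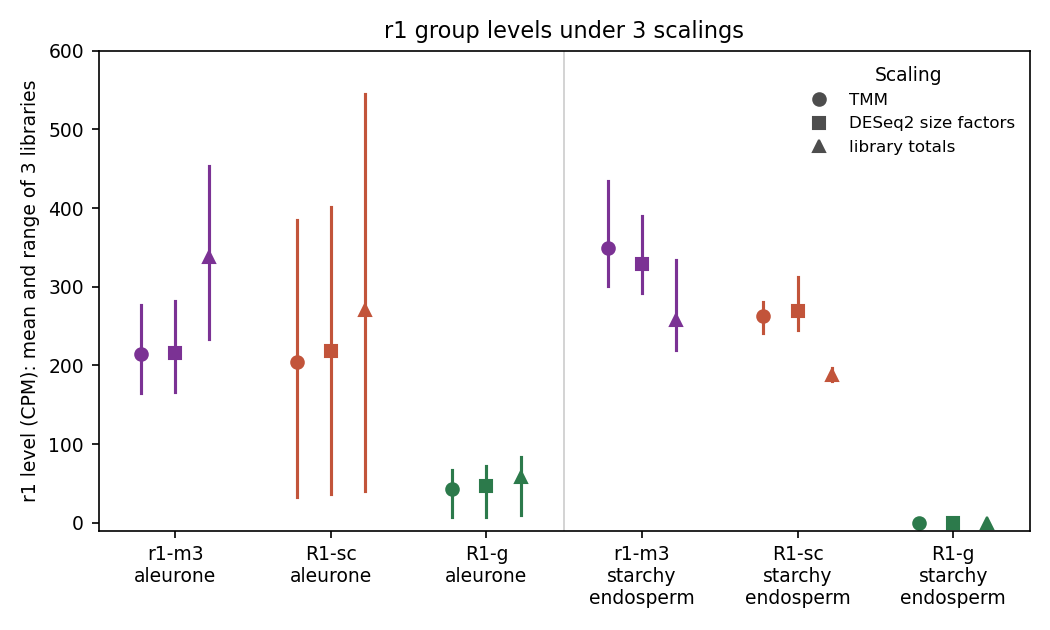
r1 level in CPM by group under 3 ways of scaling the libraries. Symbols are means and vertical lines run from the lowest to the highest of 3 libraries. In r1-m3 the aleurone lies below the starchy endosperm with TMM (215 against 349.5 CPM) and above it with library totals (338 against 258 CPM), while R1-g is the lowest genotype in both compartments under all 3.

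Ordered by mean level with TMM, the groups were r1-m3 starchy endosperm at 349.5 CPM, R1-sc starchy endosperm at 263 CPM, r1-m3 aleurone at 215 CPM, R1-sc aleurone at 204 CPM, R1-g aleurone at 43.1 CPM and R1-g starchy endosperm without reads. Neighbours in this order whose libraries overlapped were R1-sc starchy endosperm with r1-m3 aleurone, r1-m3 aleurone with R1-sc aleurone, and R1-sc aleurone with R1-g aleurone. The order of the 4 groups above R1-g depends on the scaling. With library totals it was r1-m3 aleurone at 338 CPM, R1-sc aleurone at 271 CPM, r1-m3 starchy endosperm at 258 CPM and R1-sc starchy endosperm at 188 CPM. With DESeq2 size factors R1-sc aleurone, at 218 CPM, stood above r1-m3 aleurone, at 216 CPM. R1-g was the lowest genotype in each compartment with TMM, library totals and DESeq2 size factors.

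The agreement between replicates of r1 was close in the starchy endosperm and loose in the aleurone of R1-sc and R1-g. The highest library exceeded the lowest by 1.44-fold in r1-m3 starchy endosperm and by 1.16-fold in R1-sc starchy endosperm. Among features that averaged 10 CPM or more in the same group, 88.0% and 98.0% varied more than r1. These features were not matched to r1 in level, and the part of its level in these shares was not tested. In the aleurone the corresponding ratio was 1.68-fold in r1-m3, between replicates 1 and 2 with replicate 3 in between, and 63.8% of features varied more. It was 11.9-fold in R1-sc aleurone and 9.51-fold in R1-g aleurone, where 43.7% and 43.6% of features varied more, so r1 was spread there about as widely as the median feature. Counting error is small beside this: the 671 reads of R1-sc aleurone replicate 3 have an exact 95% Poisson interval of 621 to 724. Over all groups edgeR gave r1 a biological coefficient of variation of 0.694, against a median of 1.44 for all features tested, including those under 10 CPM. The value for r1 pools unequal groups. Its SD was 7.59% of the mean in R1-sc starchy endosperm and 86.4% in R1-sc aleurone.

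**Figure D4:**
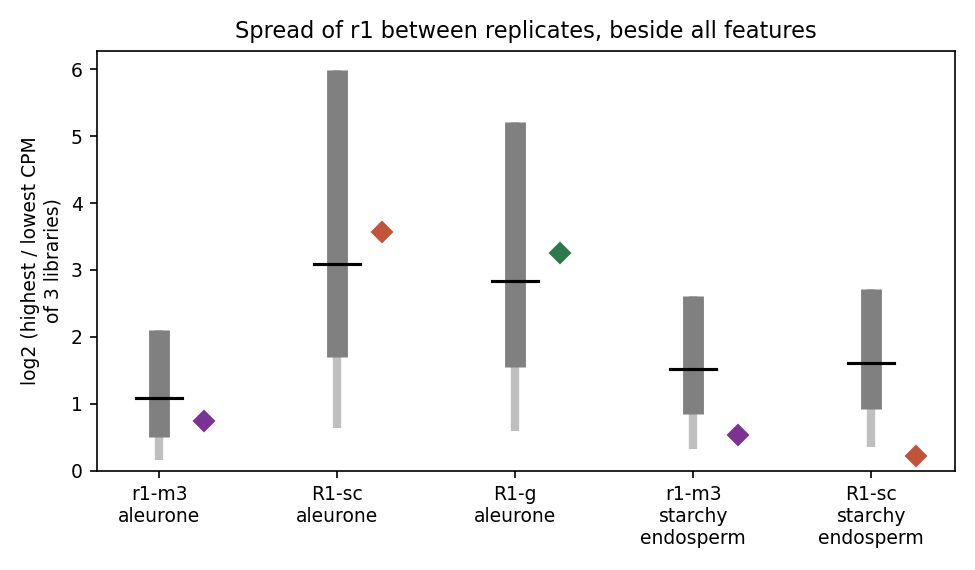
Log2 ratio of the highest to the lowest of 3 libraries, for r1 (diamonds) and for features with a group mean of at least 10 CPM (dark bar, 25th to 75th percentile; light bar, down to the 5th percentile; black line, median). R1-g starchy endosperm has no r1 reads and is not shown. r1 lies under the 25th percentile in both starchy endosperm groups, at 0.53 and 0.22, and above the median in R1-sc and R1-g aleurone, at 3.57 and 3.25.

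Few features followed the r1 pattern over the libraries. Among 12230 other features that reached a mean of 10 CPM in a group, Pearson's r of log2 CPM with r1 over the 18 libraries had a median of -0.04 and a 99th percentile of 0.44. All these correlations share the libraries, their scaling and the 3 libraries in which r1 is at 0, and they are given without p-values. The most similar feature, Zm00001d030256, had r = 0.75 (Spearman's rho 0.14, r = 0.76 without r1-m3 aleurone replicate 3). It averaged 17.02 CPM in r1-m3 and 21.5 CPM in R1-sc starchy endosperm, against 0.931 CPM in R1-g starchy endosperm. In the aleurone it did not share the r1 pattern, at 15.98 CPM in r1-m3 and 49.9 CPM in R1-sc, against 51.1 CPM in R1-g.

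The next feature, Zm00001d023694, had r = 0.72 (Spearman's rho 0.43, r = 0.72 without that library) and was lowest in R1-g in both compartments. It averaged 55.8 CPM in r1-m3 and 147 CPM in R1-sc aleurone, against 16.9 CPM in R1-g aleurone. The R1-sc libraries stood at 53.2, 32.6 and 355 CPM in replicates 1, 2 and 3, so it was highest in the R1-sc aleurone library in which r1 was lowest. In the starchy endosperm it averaged 37.6 CPM in r1-m3 and 43.1 CPM in R1-sc, against 2.66 CPM in R1-g. The most opposite features were Zm00001d043058, with r = -0.795, and Zm00001d042711, with r = -0.786. Opposition by rank was weaker, with Spearman's rho of -0.39 and -0.15. Both had their highest level in R1-g starchy endosperm, at 12.0 and 11.9 CPM, and averaged at most 1.60 and 0.834 CPM in any other group. The files do not pair these 4 IDs with names.

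Of the 90 features with a name among those compared, which are organelle genes and microRNA precursors, the mitochondrial open reading frame orf138-a was most like r1, with r = 0.64. It was followed by orf734 at 0.58, rps3, a mitochondrial ribosomal protein gene, at 0.58, cox1, a cytochrome c oxidase subunit gene, at 0.56, and orf105-b at 0.56. Likeness by rank was weaker for these 5, with Spearman's rho of 0.03 to 0.42. All 5 had their lowest mean in R1-g starchy endosperm. In the aleurone orf138-a, cox1 and orf105-b had their highest mean in R1-g, where r1 was lowest, and orf734 and rps3 did not. orf138-a averaged 20.5 CPM in R1-g aleurone and 3.38 CPM in r1-m3 starchy endosperm, where r1 was highest. Of the 20 features most like r1 by Pearson's r over 18 libraries, 20 were also among the 20 most like it without r1-m3 aleurone replicate 3, 1 was among the 20 by Spearman's rho and 3 were among the 20 by the means of the 6 groups.

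**Figure D5:**
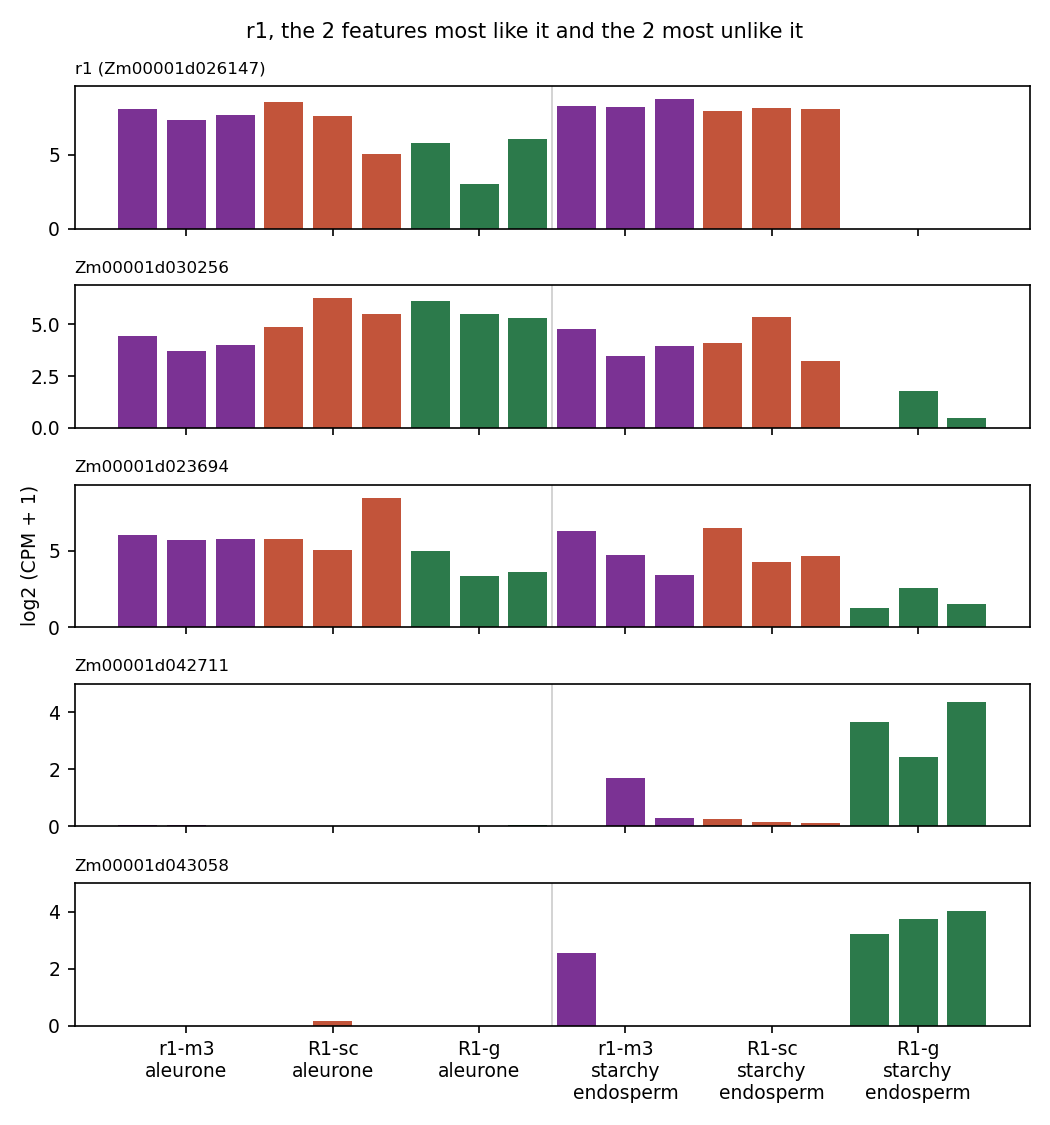
Level as log2 (CPM + 1) in each library, for r1, the 2 features most like it and the 2 most opposite to it by Pearson's r. Bars are libraries in replicate order within each group, coloured by genotype, with the aleurone left of the starchy endosperm. r1 and the 2 features most like it are low or at 0 in R1-g starchy endosperm, where the 2 opposite ones are highest.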

How the data were processed

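RNA was measured in 18 libraries of laser-captured aleurone and starchy endosperm, with cDNA amplification (Ovation V2 kit) before paired-end library construction, per the labels' protocols. The deposited tables hold whole-number read counts per feature with 5 HTSeq totals, which were left out of library sizes. Per the submitters' processing notes, the tools were HISAT2, HTSeq 0.11.2, SAMtools, Trimmomatic 0.39, DESeq2 and FastQC, and the build was B73 RefGen_v4. The strand setting is not given in the sources used here, so overlapping and antisense reads cannot be told apart. Reads outside annotated features took 6.94% to 11.1% of the table totals, and reads that aligned to several places 42.2% to 55.0%, so copies near-identical to r1 would lose reads.

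Libraries were grouped by their titles. With edgeR 4.0.16 in R 4.3.3, filterByExpr kept 18028 features, TMM gave the scaling, and a robust quasi-likelihood fit of 6 group means over all 18 libraries gave log2 fold changes. Their standard errors are the fold change over the square root of F. They use a spread of r1 shared by all 6 groups, although that spread differed widely between groups. CPM use the totals of features tested. A group at 0 was given 3 counts over its 3 libraries, which makes its folds lower bounds. Correlations used log2 CPM with a prior count of 2. The scripts were run on simulated counts. These had less spread than the median feature of the data and the same spread in every group. They check the code only, not its performance on counts as variable as these. The gene, the lists and the tests were chosen with earlier results of these data known. The rule for other named features took, by Pearson's r with r1, the 2 highest and 2 lowest without a name and the 5 highest with a name. Names were available for 519 features and for 0 of 44146 nuclear gene models. Alternatives were library totals, DESeq2 1.42.0 and its size factors, no filter, leaving out the 50 most abundant features, the 2 groups alone, a replicate block and leaving out each library.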

Additional observations from a re-analysis of the deposited data

How the results depend on the processing

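With library totals instead of TMM, the aleurone over starchy endosperm log2 fold change of r1 turned to 0.39 in r1-m3 and to 0.53 in R1-sc, and mean levels moved to 338 CPM in r1-m3 aleurone, 258 CPM in r1-m3 starchy endosperm and 188 CPM in R1-sc starchy endosperm. The TMM factors differ between the compartments, which by construction moves these values. Leaving out the 50 most abundant features made every total smaller and raised the means to 448, 427 and 91.7 CPM in r1-m3, R1-sc and R1-g aleurone and to 731 and 549 CPM in r1-m3 and R1-sc starchy endosperm. The r1-m3 over R1-sc value in the aleurone turned to -0.0174 with DESeq2 size factors and to -0.0174 with DESeq2 itself. The lower bound for R1-sc over R1-g starchy endosperm moved to a log2 value of 11.72 with DESeq2 size factors and 11.67 in the fit of these 2 groups alone, and the cause was not tested.

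With each library left out in turn, r1-m3 over R1-g ran from 11.29 to 12.03 in the starchy endosperm and from 1.81 to 2.79 in the aleurone. R1-sc over R1-g ran from 10.88 to 11.58 and from 1.40 to 2.74. The lower bounds fall without an R1-g starchy endosperm library because 3 counts are then set against fewer reads. In the aleurone r1-m3 over R1-sc ran from -0.43 to 0.92, negative without r1-m3 replicate 1 (-0.14) or R1-sc replicate 3 (-0.43). Aleurone over starchy endosperm ran from -1.21 to 0.14 in R1-sc, from -0.92 to -0.51 in r1-m3 and, as a lower bound, from 8.28 to 9.42 in R1-g. Mean levels with 1 library left out ran from 114 to 290.01 CPM in R1-sc aleurone and from 31.1 to 61.1 CPM in R1-g aleurone, the lowest without R1-sc replicate 1 and R1-g replicate 3 and the highest without R1-sc replicate 3 and R1-g replicate 2. Of 155 values under other settings, 132 were counted as unchanged. For fold changes and levels this meant no change of sign and a move within the spread between replicates. Counts of features at 0 reads were judged by their ratio instead. The spread allowed was wide in the aleurone, at 2.57 for R1-sc over R1-g, so values there could hardly fail. The level of R1-g starchy endosperm is 0 under any setting. The tally is therefore no measure of robustness.

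The replicate numbers did not pair the libraries: deviations of same-numbered libraries correlated at -0.08 to 0.02 over 9 comparisons, and every pair exceeded 0.1 in 0 of them. With the replicate number as a block, r1-m3 over R1-g in the aleurone was 2.78, R1-sc over R1-g 2.35 and r1-m3 over R1-sc 0.58. In the starchy endosperm r1-m3 over R1-sc was 0.35, and aleurone over starchy endosperm was -0.68 in r1-m3 and -0.89 in R1-sc. No block was fitted against a group at 0 reads. Other settings for the anthocyanin pathway genes were not run, since no member could be paired with a feature. Depth limits r1 in R1-g starchy endosperm to at most 0.0892 CPM over its 3 libraries together, from counting error alone.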

Other observations

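Presence in 2 genotypes with absence in the third was counted for the other genotypes and compartments too. With a minimum of 10 CPM in all 6 other libraries of a compartment, 2 of 2175 features had 0 reads in all 3 r1-m3 aleurone libraries, 0 of 2809 in R1-sc aleurone and 0 of 2651 in R1-g aleurone. In the starchy endosperm it was 1 of 3042 in r1-m3 and 0 of 3154 in R1-sc, beside the 1 of 2837 in R1-g that was r1. With a minimum of 50 CPM, r1 was the single such feature in any of the 6 groups. With a minimum of 1 CPM the counts were 4, 20 and 12 in r1-m3, R1-sc and R1-g aleurone and 8, 4 and 1 in r1-m3, R1-sc and R1-g starchy endosperm. The 2 lower and higher minimums were chosen after seeing the data.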
